A study of Mus musculus with 68 samples.

Results

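The 10 genes described here are 8 widely used targets of the transcription factor p53 (Mdm2, Ccng1, Cdkn1a, Btg2, Trp53inp1, Phlda3, Sesn1 and Zmat3) and the stress-inducible Polo-like kinases Plk2 and Plk3. They were chosen by name, with earlier results of these data known. All 10 were listed and passed the filter on low values among 13197 genes in the founder tables and 12803 genes in the F1 tables. RNA was sequenced from mouse embryonic fibroblasts (MEFs) of 8 inbred strains, the founders of the Collaborative Cross, and of 5 F1 crosses between them, after tunicamycin (TM) or solvent. TM is an antibiotic that keeps new proteins from receiving N-linked sugars, and it is a standard agent to provoke stress of the endoplasmic reticulum (ER). The question was how far the transcriptional response to ER stress differs with genotype.

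The founder strains were 129S1Sv/ImJ (129), A/J (A), C57BL/6J (B6), CAST/EiJ (CAST), NOD/ShiLtJ (NOD), NZO/H1LtJ (NZO), PWK/PhJ (PWK) and WSB/EiJ (WSB). The F1 crosses had a C57BL/6J mother and a 129, CAST, NOD, NZO or WSB father, and are written x129, xCAST, xNOD, xNZO and xWSB. Wells received TM at 2 ug/ml or, as control, 0.1% DMSO, each for 4 h. There were 18 control and 22 TM libraries from founders and 14 of each from F1 crosses, with 2 or 3 per genotype and treatment. The cells were primary, and the labels name no engineered allele. Each genotype was a single MEF line, pooled from several female embryos of a litter, so a difference between genotypes rests on 1 line each and cannot be told apart from a difference between lines. The study describes replicate wells of a genotype, treated side by side and called biological replicates, but all of them came from the same MEF line. The p-values therefore measure the spread between wells of a line, over the libraries the authors kept. Within a strain, the authors removed samples that did not cluster with their own treatment in a principal components analysis. The kept libraries were thus picked partly for separating control from TM, which bears on the p-values and on non-overlap.

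p53 is a transcription factor that is held low in unstressed cells by the ubiquitin ligase Mdm2, itself a p53 target, and that is stabilised by DNA damage and other stress. Its targets stop the cell cycle, restrain growth signals, favour repair or lead to apoptosis. Polo-like kinases act in mitosis and in centriole duplication, and Plk2 and Plk3 differ from Plk1 in that serum and stress induce them quickly. ER stress acts through the sensors IRE1, ATF6 and PERK, and PERK leads to the transcription factors ATF4 and CHOP (Ddit3).

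RefSeq held promoter windows (250 bases before to 50 after a start, GRCm38.p6) for 8 of the 10 genes, 10 windows in all. Those for Trp53inp1 and Zmat3 were not among them. Windows were searched on both strands for the cyclic AMP response element (CRE) TGACGTCA and its core TGACGT, which is part of the full element. They were also searched for the ATF4 and C/EBP composite TGATGNAA, the AP-1 site TGANTCA, the NF-kB site, the CArG box and the p53 full site with at most 1 letter off its consensus. The 250 bases before the start are printed for the 3 genes that TM raised on average in founders, which are also those that held TGACGT, and for Cdkn1a, the reference p53 target, which TM did not raise. Capitals mark TGACGTCA or TGACGT in Plk2, Btg2 and Plk3, and the p53 full site in Cdkn1a. The windows printed are chr13:110394794-110395043 on the plus strand, chr1:134079156-134079405 on the minus strand, chr4:117133964-117134213 on the minus strand, and, for the more upstream of the 2 Cdkn1a starts, chr17:29090729-29090978 on the plus strand.
Plk2: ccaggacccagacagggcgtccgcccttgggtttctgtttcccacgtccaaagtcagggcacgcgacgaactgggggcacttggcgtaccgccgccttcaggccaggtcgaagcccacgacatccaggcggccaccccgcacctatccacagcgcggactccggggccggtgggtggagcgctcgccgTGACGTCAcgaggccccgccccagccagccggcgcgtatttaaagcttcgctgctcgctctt
Btg2: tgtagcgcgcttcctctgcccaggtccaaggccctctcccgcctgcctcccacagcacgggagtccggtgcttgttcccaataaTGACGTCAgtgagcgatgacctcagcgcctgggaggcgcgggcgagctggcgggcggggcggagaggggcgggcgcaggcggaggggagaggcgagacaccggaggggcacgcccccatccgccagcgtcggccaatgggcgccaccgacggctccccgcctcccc
Plk3: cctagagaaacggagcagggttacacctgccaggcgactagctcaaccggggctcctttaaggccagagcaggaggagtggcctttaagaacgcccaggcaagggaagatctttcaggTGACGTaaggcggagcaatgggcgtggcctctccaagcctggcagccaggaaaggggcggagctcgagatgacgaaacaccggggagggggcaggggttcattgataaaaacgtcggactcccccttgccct
Cdkn1a: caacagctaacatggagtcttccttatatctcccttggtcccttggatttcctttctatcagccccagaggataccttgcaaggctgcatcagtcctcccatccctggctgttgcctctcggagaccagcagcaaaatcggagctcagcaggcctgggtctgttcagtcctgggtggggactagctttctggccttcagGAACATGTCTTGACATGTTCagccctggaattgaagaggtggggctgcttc

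TGACGTCA began 62 bases before the Plk2 start and 166 bases before the Btg2 start. The shorter TGACGT began 132 bases before the Plk3 start, and Plk2 held a further copy after its start. Of all 32851 windows, 1.79% held TGACGTCA and 7.51% held TGACGT. The p53 full site began 51 bases before the more upstream Cdkn1a start and 195 bases before the Ccng1 start. The window of the other Cdkn1a start held none. Of all windows, 0.0883% held one. No member window held TGATGNAA (3.97% of all windows), the AP-1 site (7.81%), the NF-kB site (4.51%) or the CArG box (1.63%). These matches describe letters only, and a window without a match says nothing of a factor bound elsewhere.

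Values are in scaled reads, meaning reads divided by the library size that the authors scaled, with no division by gene length. Reads on genes ran from 7091923 to 21530282 in the 38 of 40 founder libraries for which recovered reads were used (18 control and 20 TM). They ran from 6442976 to 29528457 in the 28 F1 libraries. The founder and F1 sets were scaled apart, so levels are not compared between them. All 12 fibroblast markers were listed, and their summed value ran from 21680 to 57900 in founder control and from 18486 to 51726 in founder TM libraries. The summed myeloid markers (12 of 14 listed) were at most 75.4, the endothelial markers (5 of 5) at most 19.9 and the epithelial markers (4 of 5) at most 132. Among the epithelial markers, Krt19 had the highest median over founder libraries (33.0, at most 66.3), followed by Krt18 (11.6, at most 61.6). None of the listed markers of these types had a median of 0 in founders. The medians of the summed fibroblast markers were 39766 in control and 28281 in TM libraries, and the part of this in the results was not tested. The treatment acted in both sets: Herpud1 rose by 4.30 log2 units, Ddit3 by 3.90, Hspa5 by 2.82 and Xbp1 by 1.18 on average over founders.

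The TM libraries numbered 3 deviated together across genotypes. Over 9282 genes, the deviations of 2 such libraries from their own group means correlated positively in 55 of 66 pairs of genotypes (median r 0.36). For the TM libraries numbered 1 it was 41 of 66 pairs (median r 0.21) and for those numbered 2 it was 36 of 66 (0.04). Among control libraries it was 21 of 28 pairs for number 1 (0.30), 27 of 55 for number 2 (−0.00) and 46 of 78 for number 3 (0.14), so deviation by number was not confined to the TM libraries numbered 3. What the number stands for is not given in the sources used here. Among the members, Ccng1 was lower in the library numbered 3 than the mean of the other TM libraries of its genotype in 12 of 12 genotypes, and Cdkn1a was higher in 11 of 12. Trp53inp1 and Btg2 were lower in 11 of 12. The median of that difference was −0.27 log2 units for Ccng1, 0.26 for Cdkn1a, −0.30 for Trp53inp1 and −0.14 for Btg2, but only −0.04 for Plk2 and −0.02 for Mdm2. Zmat3 was lower in 9 of 12 genotypes (median −0.19) and Phlda3 higher in 9 of 12 (0.12). The founder averages of Plk2, Plk3, Btg2, Mdm2, Ccng1, Cdkn1a and Trp53inp1 are given with and without these libraries. So are the tests of the TM change between genotypes. Over the alternatives run, which include leaving these libraries out, the founder change of Phlda3 stayed between −0.42 and −0.37 log2 units. That of Zmat3 stayed between −0.33 and −0.23. The part of these libraries in any other result was not tested.

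**Figure D1:**
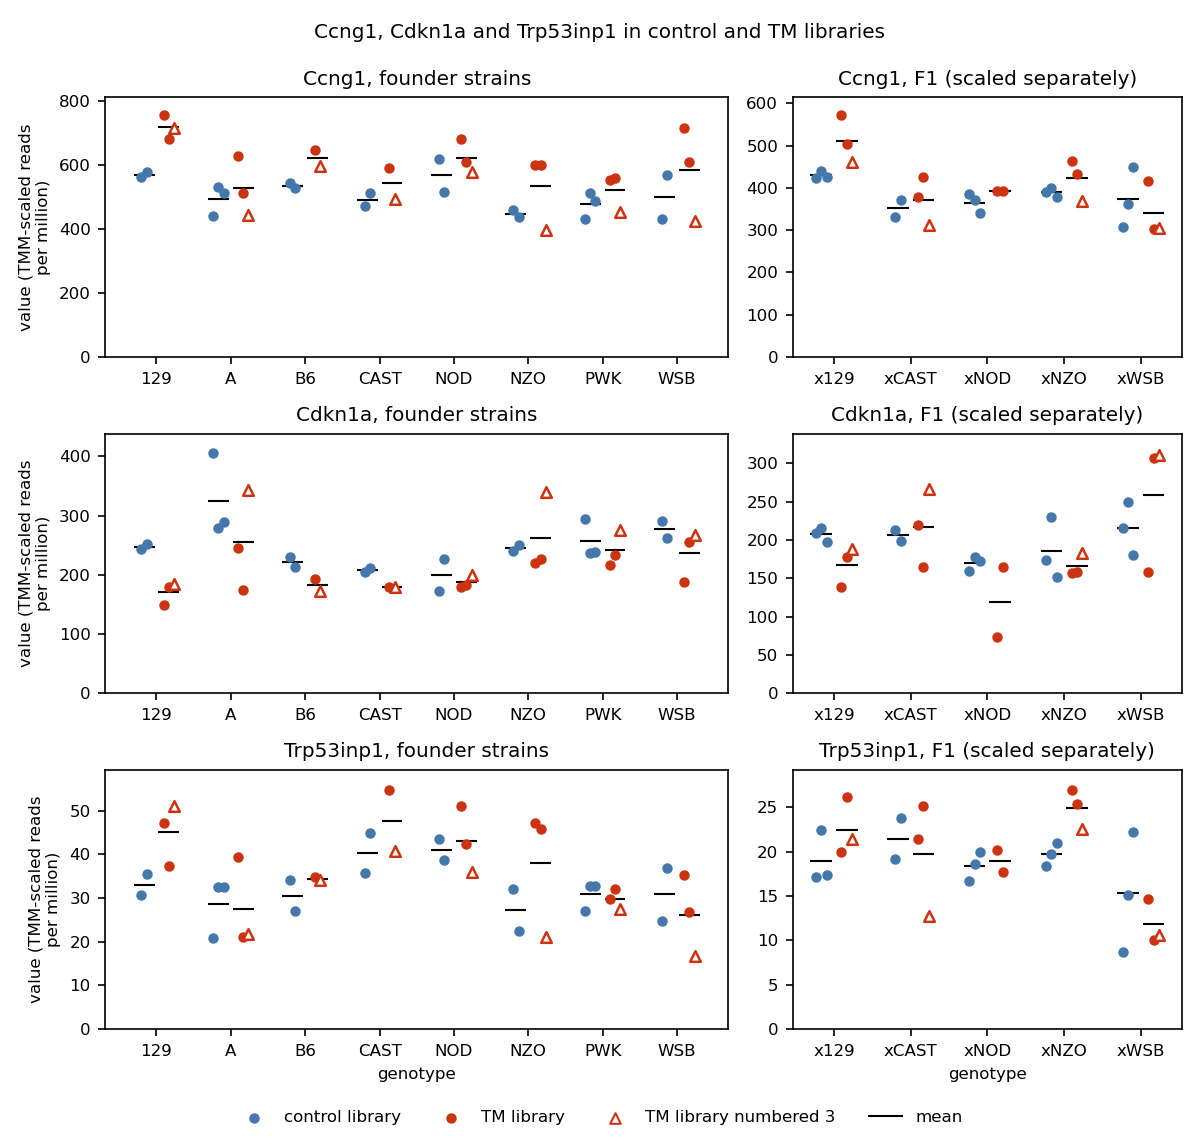
Scaled reads of Ccng1, Cdkn1a and Trp53inp1 (vertical axis, from 0) in each library by genotype (horizontal axis), with control in blue, TM in red, the TM library numbered 3 as an open triangle and a line for the mean. The triangle is below the mean of the other TM points in 12 of 12 genotypes for Ccng1 and above it in 11 of 12 for Cdkn1a.

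On average over the 8 founder strains, TM raised Plk2, Plk3 and Btg2, and lowered none of the 10. A gene is called raised or lowered where it changed by 1.5 fold or more with an adjusted p (limma, Benjamini-Hochberg over all genes tested) under 0.01. By this rule 6.04% of all genes were raised and 5.41% were lowered. In the F1 crosses TM raised 4 of 10, Plk2, Btg2, Mdm2 and Plk3, where 4.95% of all genes were raised and 5.54% lowered. The median change over the 10 genes was 0.15 log2 units in founders and 0.06 in F1 crosses, beside −0.04 over all genes in both. Without the TM libraries numbered 3, the founder changes were 1.03 log2 units for Plk2, 0.85 for Plk3, 0.66 for Btg2 and 0.56 for Mdm2, with the same 3 genes past the rule. In F1 crosses, Btg2 and Plk3 no longer passed without the TM libraries numbered 1 (0.56 and 0.55 log2 units), nor Mdm2 without those numbered 2 (0.55). In bulk RNA, fewer cells that express a gene and less RNA per cell cannot be told apart.

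At any size, 4 members were higher and 2 lower at an adjusted p below 0.01 in founders, where 20.5% of all genes were higher and 21.9% lower. The 4 were Plk2, Plk3, Btg2 and Mdm2, and the 2 were Phlda3 and Zmat3. In F1 crosses the same 4 were higher and Zmat3 alone was lower, against 16.9% and 18.7% of all genes. For Plk2, Plk3, Mdm2 and Btg2, every TM library lay above every control library of its genotype in all 8 strains and all 5 crosses. Of all genes, 4.12% did so in the 8 strains and 4.53% in the 5 crosses. No member had every TM library below every control library in all genotypes of a set, as 2.99% of all genes did in founders and 3.32% in F1 crosses. With 2 or 3 libraries a side, separation within a single genotype can easily arise by chance. Its share over all genes was not counted, so the counts of single genotypes below are descriptive.

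**Figure D2:**
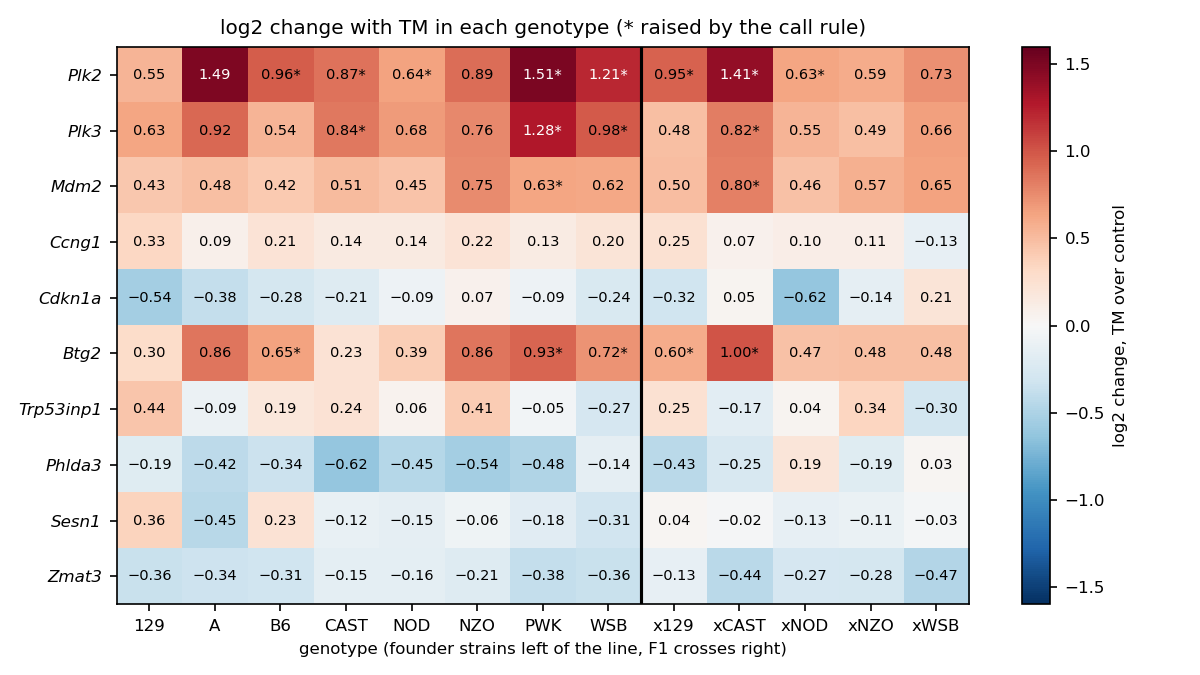
Log2 change with TM over control (colour and printed value) of the 10 genes (rows) in 13 genotypes (columns), with * for raised calls. The rows of Plk2, Plk3, Mdm2 and Btg2 are positive in every genotype, whereas those of Phlda3 and Zmat3 are negative in all 8 founder strains.

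Plk2, a kinase of centriole duplication and of synapses, gave the largest change among the 10. In 129, the control libraries held 446 and 442 scaled reads and the TM libraries 591, 700.3 and 662. In A they held 203, 239 and 241 in control and 673, 605 and 641 with TM. In B6 they were 276 and 286, then 557 and 541 with TM. The control values in A lay well below those in 129, whereas the TM libraries of both strains overlapped. CAST held 203 and 202 in control and 371 and 367 with TM. NOD held 341 and 336, then 535, 531 and 521 with TM. NZO held 331 and 315, then 613, 635 and 555. CAST stood apart with TM, since its libraries lay below all TM libraries of the other 7 strains. PWK started at the CAST level, with 199.8, 203 and 201 in control, and reached 590.0, 582 and 548 with TM. WSB held 247 and 283, then 629, 599 and 604.

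The average change of Plk2 over founders was 1.02 log2 units (SE 0.0328, 2.02 fold, 95% interval 0.949 to 1.08, adjusted p = 3.99e-21). Within strains it ran from 0.55 in 129 to 1.51 in PWK. TM raised Plk2 within B6, CAST, NOD, PWK and WSB. In A the change was 1.49 log2 units with an adjusted p of 0.0102, in NZO it was 0.89 (adjusted p = 0.0248) and in 129 it was 0.55 (adjusted p = 0.0948), so these 3 did not pass.

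In the F1 crosses, Plk2 in x129 was at 278, 277 and 248 in control and 522, 508 and 519.5 with TM. xCAST was lowest, with 116 and 119.5 in control and 325, 317 and 299 with TM. xNOD held 261, 278 and 262, then 411 and 417. No library of 1 treatment overlapped the other in these crosses. xNZO held 308, 319.6 and 282, then 487, 453 and 431. xWSB was highest, at 390.2, 450.2 and 478 in control and 776, 737 and 675 with TM. The average change was 0.86 log2 units (SE 0.0413, 1.82 fold, adjusted p = 5.97e-14), and Plk2 was raised within x129, xCAST and xNOD.

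**Figure D3:**
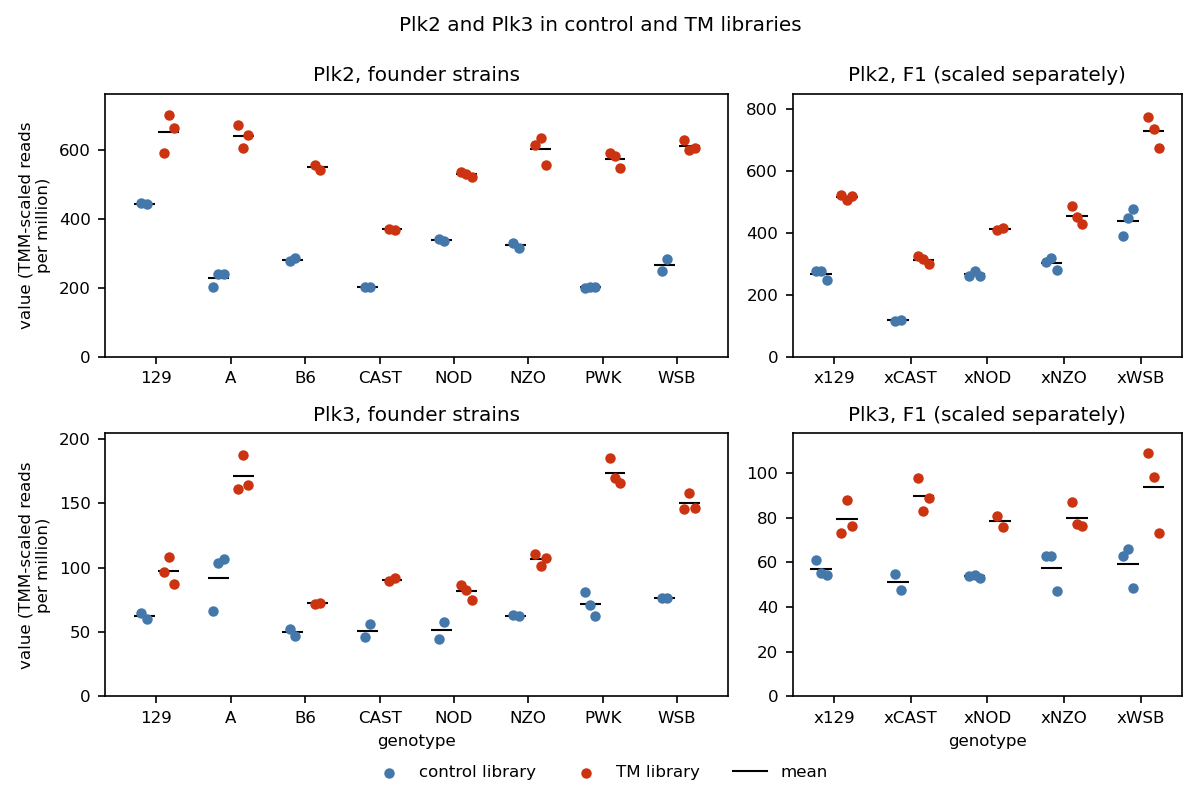
Scaled reads of Plk2 and Plk3 (vertical axis, from 0) in each library by genotype (horizontal axis), blue points for control, red for TM and a line for the mean. TM points stand above control points in all 13 genotypes, and Plk2 with TM was lowest in CAST among founders (371 and 367).

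Plk3, a kinase of the stress response and of cell cycle entry, rose on average over founders as well. Its control and TM values were 64.8 and 60.4, then 96.5, 109 and 87.5 in 129. In A they were 66.3, 104 and 107, then 161, 188 and 164. In B6, the lowest strain with TM, they were 52.5 and 47.1, then 71.8 and 72.8. The A control libraries spread more than those of other strains, yet lay below all of its TM libraries. CAST held 46.0 and 55.8, then 89.6 and 91.7. NOD held 44.6 and 57.8, then 86.8, 82.8 and 74.7. NZO held 62.9 and 62.4, then 111, 101 and 108. These 3 strains reached similar levels, between 74.7 and 111 with TM. PWK held 81.3, 71.1 and 62.6, then 185, 169 and 166, and WSB held 76.2 and 76.0, then 146, 158 and 147. PWK, A and WSB were the highest strains with TM, and no library of theirs overlapped those of the other 5.

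The average change of Plk3 was 0.83 log2 units in founders (SE 0.0533, 1.78 fold, adjusted p = 7.98e-14) and 0.60 in F1 crosses (SE 0.0657, 1.51 fold, adjusted p = 1.09e-07). TM raised it within CAST, PWK and WSB and within xCAST. The within-strain change ran from 0.54 log2 units in B6 to 1.28 in PWK. In F1 crosses the control values ran from 46.9 to 65.8 and the TM values from 73.0 to 109, without overlap. The F1 call was lost, at 0.57 to 0.58 log2 units, on leaving out any of 7 libraries (x129 TM 2, xCAST control 3 or TM 1, xNZO control 3 or TM 1, xWSB control 3 or TM 1).

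Mdm2, the ligase that marks p53 for degradation, passed the adjusted p in both averages but reached 1.5 fold only in F1 crosses. Its control and TM values were 282 and 288, then 374, 398 and 381 in 129. In A they were 305, 270.0 and 262, then 419, 334 and 422. In B6 they were 223 and 227, then 321 and 285. The step was smallest in B6 and no strain overlapped. CAST held 216 and 213, then 316 and 295. NOD held 310.0 and 287, then 411, 411 and 403. NZO held 249 and 227, then 402, 395 and 405. NZO had the largest change, 0.75 log2 units. PWK held 204, 224 and 228, then 337, 341 and 335, and WSB held 203 and 239.5, then 365, 344 and 312. The F1 values lay between 128 and 176 in control and between 215 and 267 with TM.

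The average change of Mdm2 was 0.54 log2 units in founders (SE 0.0366, 1.45 fold, 95% interval 0.464 to 0.614, adjusted p = 2.82e-13) and 0.60 in F1 crosses (SE 0.0435, 1.51 fold, adjusted p = 1.45e-10). TM raised it within PWK and within xCAST. The F1 call was lost, at 0.57 to 0.58 log2 units, without xCAST control 2, xNOD TM 2 or xWSB control 1. The PWK call was lost without PWK control 1.

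Ccng1 encodes cyclin G1, which recruits a phosphatase that activates Mdm2, and it showed no called change in either set. Control libraries of founders ran from 432 to 618 scaled reads and TM libraries from 396 to 754. Every TM library lay above every control library in 2 of 8 strains, 129 and B6, a count with no share of all genes beside it. NZO showed the spread of the library numbered 3, with 458 and 438 in control and 601, 601 and 396 with TM. The average change was 0.18 log2 units in founders (SE 0.0647, adjusted p = 0.0185) and 0.08 in F1 crosses (adjusted p = 0.320), and neither passed. Without the TM libraries numbered 3 the founder change was 0.29 log2 units (adjusted p = 9.41e-05).

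Cdkn1a, the p21 inhibitor of cyclin-dependent kinases, did not rise in founders or in F1 crosses. In 129 it held 244 and 251 scaled reads in control and 149, 179.7 and 185 with TM. In B6 it held 229 and 214, then 193 and 172, and in CAST 205 and 211, then 179 and 179.7. In these 3 strains every TM library lay below every control library, and the share of all genes that did so was not counted. NZO held 239 and 251, then 221, 226 and 339, its highest value in the library numbered 3. The average change was −0.22 log2 units in founders (SE 0.0738, adjusted p = 0.0131) and −0.16 in F1 crosses (SE 0.118, adjusted p = 0.256). Without the TM libraries numbered 3 the founder change was −0.30 log2 units (adjusted p = 0.000879), still short of 1.5 fold. In F1 crosses xNOD held 159.6, 177 and 173 in control and 73.5 and 165 with TM, whereas xWSB held 216, 250.0 and 179.8, then 158, 307 and 311.

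Btg2, an antiproliferative gene that recruits mRNA deadenylases and is both a p53 target and an early response gene, rose on average over both sets. Its control and TM values were 90.3 and 86.9, then 97.8, 119 and 110.3 in 129. In A, the highest strain, they were 153, 170.0 and 176, then 309.8, 307 and 286. In B6 they were 80.6 and 71.5, then 126 and 112. The A libraries lay above those of all other strains in each treatment. CAST was lowest, with 54.8 and 61.8 in control and 68.7 and 67.6 with TM. NOD held 86.1 and 86.8, then 113, 125 and 103. NZO held 111 and 107, then 199, 208 and 185. CAST with TM remained below every control library of the other 7 strains. PWK held 88.5, 95.4 and 96.2, then 195, 179 and 159.6, and WSB held 90.8 and 89.1, then 162, 143 and 140.0.

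The average change of Btg2 was 0.61 log2 units in founders (SE 0.0385, 1.53 fold, adjusted p = 4.47e-14) and 0.61 in F1 crosses (SE 0.0591, 1.52 fold, adjusted p = 1.57e-08). TM raised it within B6, PWK and WSB and within x129 and xCAST. Within strains the change ran from 0.23 log2 units in CAST to 0.93 in PWK. In xCAST, Btg2 held 63.3 and 57.4 in control and 130.3, 132 and 103 with TM, a change of 1.00 log2 units. In x129 it held 98.6, 98.2 and 100.0, then 143, 166 and 141. The other 3 crosses gave 0.47 to 0.48 log2 units, and their libraries did not overlap between treatments.

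**Figure D4:**
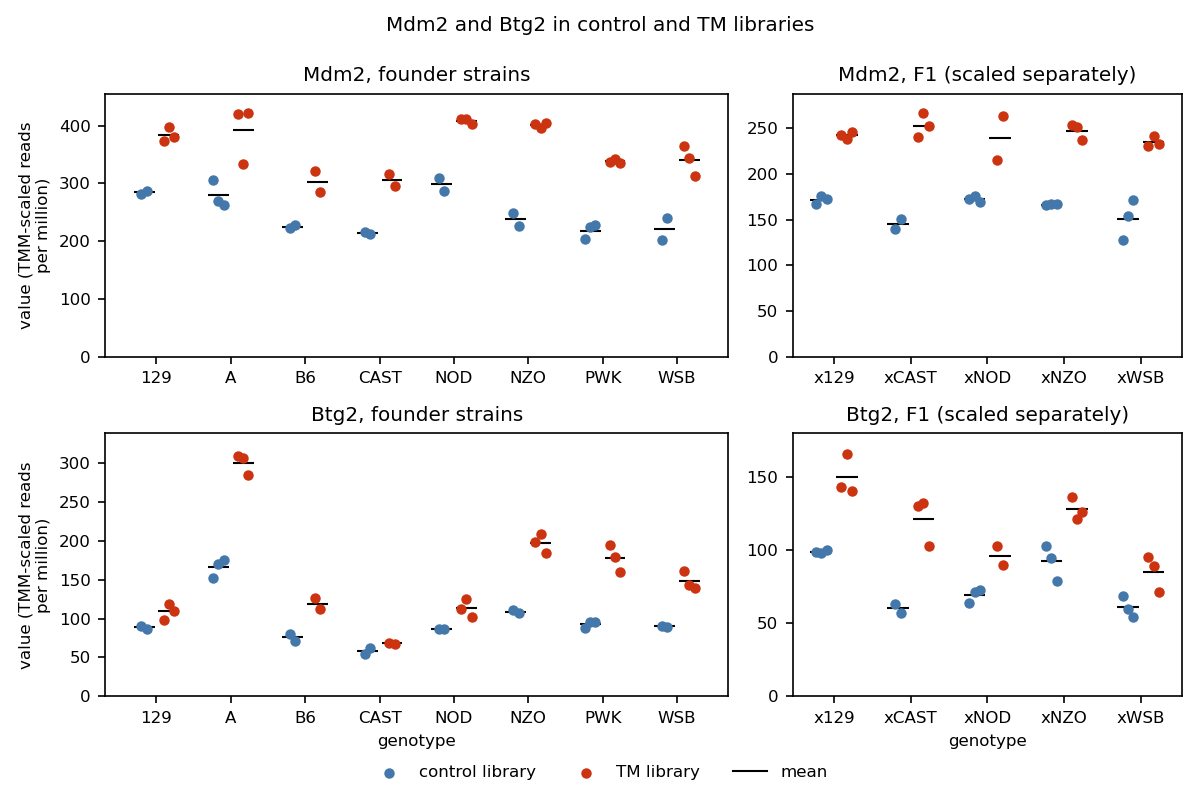
Scaled reads of Mdm2 and Btg2 (vertical axis, from 0) in each library by genotype (horizontal axis), blue points for control, red for TM and a line for the mean. Treatments do not overlap in any of the 13 genotypes, and Btg2 was highest in A (309.8 at most) and lowest in CAST.

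Phlda3, which blocks Akt at the membrane, and Zmat3, an RNA-binding zinc finger protein that controls splicing, passed the adjusted p below 1.5 fold, with lower values in TM. In CAST, Phlda3 held 349 and 278 scaled reads in control and 192 and 214 with TM. In PWK it held 346, 286 and 274, then 226, 202 and 217. In A, by contrast, it held 547, 278 and 288 in control and 191, 336 and 284 with TM, and the treatments overlapped. Every TM library lay below every control library in 5 of 8 strains, and the share of all genes that did so was not counted. The founder average was −0.40 log2 units (SE 0.0866, 0.759 fold, adjusted p = 0.000295). The F1 average was −0.13 (SE 0.0903, adjusted p = 0.242), and in xNOD every TM library (294 and 314) lay above every control library (261, 272 and 265).

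Zmat3 in 129 held 125 and 123 scaled reads in control and 84.1, 99.0 and 108 with TM. In PWK it held 93.3, 95.5 and 97.9, then 81.0, 76.1 and 63.8. TM libraries lay below the controls in 5 of 8 strains and 4 of 5 crosses, and the share of all genes that did so was not counted. The average change was −0.28 log2 units in founders (SE 0.0515, 0.821 fold, adjusted p = 3.12e-05) and −0.32 in F1 crosses (SE 0.0549, 0.802 fold, adjusted p = 4.98e-05).

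Trp53inp1, which acts in autophagy and in p53-dependent apoptosis, ran from 20.7 to 44.8 scaled reads in founder control and from 16.6 to 54.6 in founder TM libraries. Its average change was 0.11 log2 units (SE 0.109, adjusted p = 0.385), and 0.26 (adjusted p = 0.0341) without the TM libraries numbered 3. Sesn1, a sestrin that restrains mTORC1 and oxidative damage, ran between 4.56 and 8.04 scaled reads in founder control and 4.60 and 8.80 with TM. Its average change was −0.08 log2 units (SE 0.0651, adjusted p = 0.276). In F1 crosses the average changes were 0.03 for Trp53inp1 (adjusted p = 0.833) and −0.05 for Sesn1 (adjusted p = 0.758). Per kilobase of exon, the founder control medians ran from 1.66 for Sesn1 and 5.04 for Trp53inp1 to 146 for Ccng1 and 185 for Phlda3, with Cdkn1a at 68.1, Plk2 at 58.3, Mdm2 at 46.0, Btg2 at 32.7, Plk3 at 24.8 and Zmat3 at 9.06.

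Within single genotypes, with 2 or 3 libraries a side, the 10 genes gave 12 raised calls in founders and 7 in F1 crosses, and no lowered call. PWK had 4 raised members (6.36% of all genes were raised there), WSB 3 (2.85%), B6 2 (5.04%), CAST 2 (2.54%) and NOD 1 (1.45%). There was none in 129 (0.315%), A (0.346%) and NZO (0.32%), where few genes passed. In xCAST 4 members were raised (2.52%), in x129 2 (4.88%) and in xNOD 1 (3.69%), with none in xNZO (1.44%) and xWSB (0.185%). Lowered genes made up 0.00787% of all genes in 129, 0.00786% in A, 3.22% in B6, 0.478% in CAST, 0.165% in NOD, 0.0078% in NZO, 4.3% in PWK and 4.2% in WSB. In the crosses they made up 1.36% in x129, 1.2% in xCAST, 4.6% in xNOD, 0.152% in xNZO and 0.0161% in xWSB. 129, A and NZO were also the 3 strains with the fewest genes raised, and the changes of Plk2 and Btg2 in A and NZO were as large as some of those called elsewhere. With 1 fit over all 40 founder libraries there were 22 raised calls. The share of all genes raised under that fit was not counted, so this number has no background beside it.

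The size of the TM change was compared across strains on log2(TM/control), with the median control of the strain as reference and a moderated F test. It differed for Plk2 (adjusted p = 5.01e-06), Btg2 (adjusted p = 0.00220) and Plk3 (adjusted p = 0.00260), 3 of the 10, where 2.9% of all genes passed at 0.01. This test takes the control median as known. The study, from these libraries and a like model, had named Plk2 among its strongest strain effects. The count is thus not independent of how the genes were chosen. The genotype by treatment interaction, which counts the spread of the controls, passed at 0.01 for Plk2 alone (adjusted p = 5.19e-05), against 0.174% of all genes, with 0.0458 for Btg2 and 1.00 for Plk3. With a replicate block the interaction passed for no member, Plk2 included. Whether the replicate numbers pair the samples was not tested. The Plk3 difference also fell short when any of the 3 PWK TM libraries was left out, at an adjusted p of 0.0109 to 0.0205. For the other 7 genes the adjusted p of the F test was 0.0544 or more. Without the TM libraries numbered 3, the F test gave an adjusted p of 0.0244 for Plk2, 0.127 for Btg2 and 0.176 for Plk3, and none passed. Leaving out those numbered 1 or 2, which also leaves fewer libraries, gave no call either, with 0.0364 and 0.0195 for Plk2.

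Control levels differed between strains for Btg2 (adjusted p = 5.29e-07), Plk2 (2.17e-06), Mdm2 (0.00427) and Plk3 (0.00727), 4 of 10 beside 35.8% of all genes. The calls of Mdm2 and Plk3 were lost without a trend in the variance, at adjusted p of 0.0105 and 0.0178. With a single control library left out, the Mdm2 call was lost in 8 of 18 fits and the Plk3 call in 15 of 18.

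The mean control level of Plk2 was lowest in PWK (201) and CAST (202), followed by A (228), WSB (265), B6 (281), NZO (323), NOD (339) and 129 (444). Neighbours overlapped between PWK and CAST, between CAST and A, and between WSB and B6. With TM the order was CAST (369), NOD (529), B6 (549), PWK (573), NZO (601), WSB (611), A (639.6) and 129 (651), and among neighbours only CAST and NOD, and NOD and B6, did not overlap. The highest and lowest strain means differed 2.21 fold in control and 1.76 fold with TM. The largest changes, in PWK and A, belonged to strains with low control levels and the smallest to 129, with the highest, although CAST started as low as PWK and changed by 0.87 log2 units. The control level enters the change itself, so this is a description.

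For Btg2 the control means ran from 58.3 in CAST through 76.1 in B6, 86.5 in NOD, 88.6 in 129, 90.0 in WSB, 93.4 in PWK and 109 in NZO to 166 in A, and only 129, WSB and PWK overlapped their neighbours. With TM they ran from 68.2 in CAST through 109 in 129, 114 in NOD, 119 in B6, 148 in WSB, 178 in PWK and 197 in NZO to 301 in A. The strain means thus differed 2.85 fold in control and 4.41 fold with TM. For Plk3 they differed 1.85 fold in control, from B6 to A, and 2.40 fold with TM, from B6 to PWK. For Mdm2 they differed 1.39 fold in control, from CAST to NOD, and 1.35 fold with TM, from B6 to NOD.

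In the F1 crosses the TM change of Plk2 differed between crosses in the F test (adjusted p = 0.00356), 1 of 10 beside 0.227% of all genes. The interaction gave an adjusted p of 0.0220 and passed at 0.01 for no member, beside 0.0547% of all genes (7 genes). The F test call was lost without x129 TM 3, xCAST TM 1 or 2, xNOD TM 1, any xNZO TM library or xWSB TM 2, at an adjusted p of 0.01004 to 0.0299. The change was 1.41 log2 units (SE 0.142) in xCAST, 0.95 (SE 0.0827) in x129, 0.73 (SE 0.170) in xWSB, 0.63 (SE 0.0899) in xNOD and 0.59 (SE 0.100) in xNZO. F1 control levels differed for Plk2 (adjusted p = 3.47e-07) and Btg2 (adjusted p = 0.000555) in a moderated F test. The share of all genes that passed this test in F1 crosses was not counted, so these calls have no background beside them.

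Beside the parents, the xCAST cross had a Plk2 change of 1.41 log2 units where B6 had 0.96 and CAST 0.87. For Btg2 the cross had 1.00 where B6 had 0.65 and CAST 0.23, for Plk3 0.82 where B6 had 0.54 and CAST 0.84, and for Mdm2 0.80 where B6 had 0.42 and CAST 0.51. The xNZO cross lay below both parents for Plk2 (0.59 beside 0.96 in B6 and 0.89 in NZO) and for Btg2 (0.48 beside 0.65 and 0.86). Over the 5 crosses the Plk2 change was within the range of the parents in 1, above in 1 and below in 3. The Mdm2 change was above both parents in 4 of 5 and within in 1. Some of these margins were far smaller than the SE. In xNOD the Mdm2 change was 0.463 (SE 0.112) beside 0.453 (SE 0.102) in NOD. The Plk2 change there was 0.635 (SE 0.0899) beside 0.643 (SE 0.100). The counts thus do not show that crosses lay outside the range of their parents. All 5 comparisons share the B6 libraries, the sets were scaled apart, and the differences were not tested.

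Over the 8 strains, the genes whose change was most like that of Plk2 were Gjb2, a connexin (Pearson r 0.98), Zfp36, an mRNA decay factor (0.94), and Cwf19l1 (0.93). For Btg2 they were Arl4d (0.94), the cytokine Lif (0.94) and the NF-kB subunit Relb (0.93). For Plk3 they were the kinase Tec (0.97), Bean1 (0.94) and Ppp1r15a, a phosphatase subunit of the ATF4 and CHOP branch (0.94). Among members, r was 0.79 for Plk2 and Btg2, 0.78 for Plk2 and Plk3 and 0.55 for Btg2 and Plk3. These values describe 8 points that share 1 line and 1 set of controls per strain, picked as the highest of all genes.

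The rest of the p53 pathway was read from lists. For comparison, 6.04% of all genes rose and 5.41% fell by the call rule in founders, and 4.95% and 5.54% in F1 crosses. Trp53, the p53 gene, was at a median of 124 scaled reads in founder control and 126 with TM (0.04 log2 units, adjusted p = 0.606), and changed by −0.09 in F1 crosses (adjusted p = 0.327). Of 20 listed genes for p53 and its regulators, 2 rose and 1 fell in founders, with a median of 0.07. These were Rchy1, a ubiquitin ligase for p53, at 0.71, Chek1, the checkpoint kinase, at 0.70, and the kinase gene Hipk2 at −0.84. The Hipk2 change had an SE of 0.236 and ran from −2.52 to 0.0044 log2 units between strains. That of Rchy1 ran from 0.45 to 1.11 and that of Chek1 from 0.44 to 1.12. In F1 crosses 2 rose and 2 fell, with a median of 0.05. Of 47 other p53 targets, 6 rose and 2 fell in founders and 5 rose and 3 fell in F1 crosses, with medians of −0.08 and −0.00. The founder changes were led by Gadd45a, a growth arrest gene, at 3.57 and Gdf15, a secreted stress cytokine, at 1.36, and the falls were Zfp385a at −0.70 and Pidd1, of the PIDDosome, at −0.68. Gadd45a and Gdf15 are also known as targets of ATF4 and CHOP.

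Among 17 listed paralogs of the 10 genes, 3 (17.6%) rose and none fell in either set, with medians of 0.02 and 0.20. In founders these were Sesn2, a sestrin induced by ATF4, at 1.15, Phlda1 at 0.67 and Zmat1 at 0.64. The mitotic kinase Plk1 changed by −0.39 log2 units in founders (adjusted p = 1.81e-08) and −0.47 in F1 crosses (adjusted p = 1.59e-06), and the centriole kinase Plk4 by 0.35 (adjusted p = 2.93e-05) and 0.20 (adjusted p = 0.0199), all short of 1.5 fold. Of 30 cell cycle genes that p21 and the DREAM complex repress, none rose or fell by the rule in either set, and the medians were −0.02 and −0.05. At any size and an adjusted p below 0.01, 6 were higher and 6 lower in founders, and 4 higher and 6 lower in F1 crosses. Of all genes, 20.5% were higher and 21.9% lower at any size in founders, and 16.9% and 18.7% in F1 crosses. By the rule 6.04% of all genes rose and 5.41% fell in founders, and 4.95% and 5.54% in F1 crosses.

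Of 12 genes of the ATF4 and CHOP list, 11 rose in founders (median 1.52) and 11 in F1 crosses (median 1.48). Beside these, 6.04% and 4.95% of all genes rose. Sesn2 and Ddit4 stand on this list and on that of p53 targets. The smallest of the founder rises were Asns, asparagine synthetase, at 0.86 and Nupr1 at 0.88. Of 18 immediate early genes, 8 rose in founders (median 0.57) and 6 in F1 crosses (median 0.49), and none fell. In founders Egr1 at 1.49 and Myc at 1.37 led them, and Ier3 at 0.61 and Junb at 0.68 were the smallest.

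**Figure D5:**
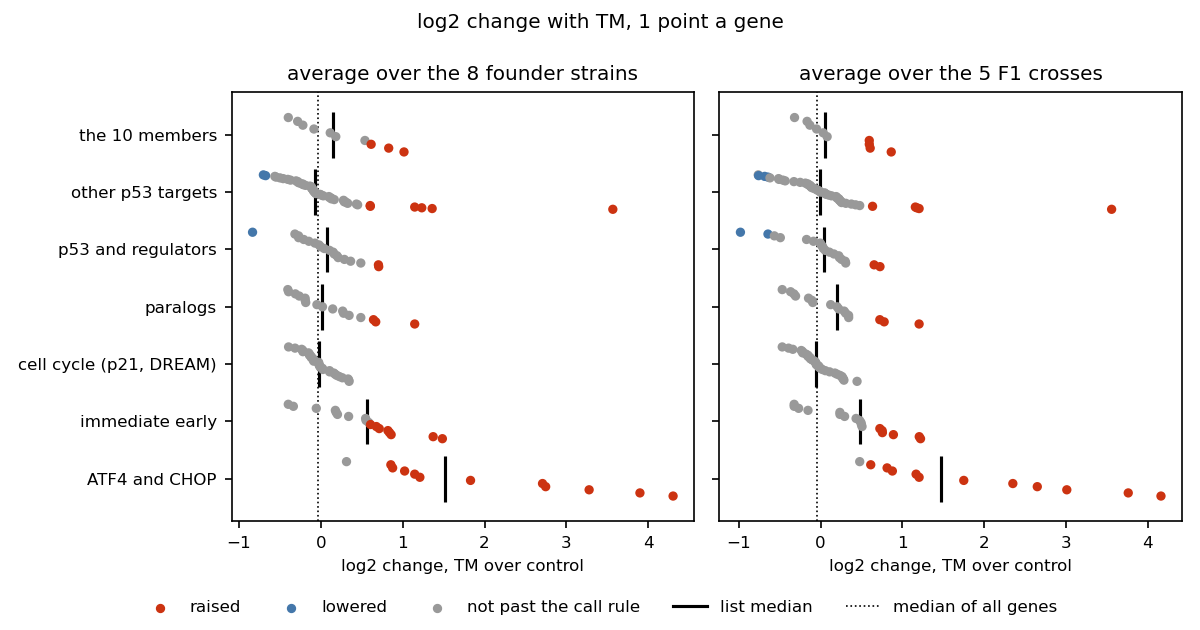
Average log2 change with TM over control (horizontal axis) of each gene of 7 lists (rows), in founders at left and F1 crosses at right, coloured by call, with black bars for list medians and a dotted line for the median of all genes (−0.04). Medians were 1.52 for ATF4 and CHOP genes and 0.57 for immediate early genes in founders, and −0.08 for other p53 targets.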

How the data were processed

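RNA-seq of MEFs gave 68 libraries. Per the study methods and the submitters' processing notes, the authors aligned reads of 100 bases with TopHat 1.4.1 to strain-specific genomes, allowing 3 mismatches, and scaled libraries with edgeR. FastQC and Trimmomatic are named too. The methods describe read cleaning (FastQC for quality, FASTX-Toolkit for read ends, Trimmomatic for adapters) for the F1 allele counts, and do not say whether it also preceded the tables used here. The deposited tables are named FPKM, but their values step in whole reads and carry no gene length. The deposited values are thus a signal that the authors made by scaling reads per library (TMM). All values lay within 0.05 of a whole read in each library, and recovered reads were used for 66 of 68 libraries. The F1 tables also hold 3 rows that name no gene, 15.5% to 24.1% of each total, which were left out.

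Values were tested as log2(value + 0.1), which understates changes of low genes, with limma 3.58.1 (R 4.3.3, trend in the prior variance) over genes at 0.5 or more in 2 or more libraries. Groups came from the labels. TM was compared with control on average over the genotypes of a set and within each genotype, called at an adjusted p below 0.01 and 1.5 fold. Genotypes were compared by moderated F tests. edgeR 4.0.16 on recovered reads was an alternative, and scripts were tested on simulated data. Named genes were the 10 members, from each list the 2 largest and 2 smallest called changes, Trp53, the other Polo-like kinases, ER stress checks and the 3 nearest patterns. The members and lists were chosen with earlier results of these data known. The main fits did not use the replicate numbers as pairs, and whether these numbers pair the samples was not tested. Gene positions and exon lengths came from a GRCm38 annotation, and promoters from RefSeq (GRCm38.p6). Alternatives were other pseudocounts, filters, scaling, no trend, a replicate block, single libraries left out and, chosen after seeing the data, TM libraries of 1 number left out and an edgeR interaction.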

Additional observations from a re-analysis of the deposited data

Results flagged for a closer look

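Among the members, Plk2 and Btg2 were marked because the genotype by treatment interaction, fitted by limma over all libraries of a set, differed between genotypes at an adjusted p below 0.05. For Plk2 in founders the adjusted p was 5.19e-05, with changes from 0.55 log2 units in 129 to 1.51 in PWK. For Plk2 in F1 crosses it was 0.0220, with changes from 0.59 in xNZO to 1.41 in xCAST. For Btg2 in founders it was 0.0458, with changes from 0.23 in CAST to 0.93 in PWK. All changes were positive, so the genotypes differed in size and not in direction. With edgeR on recovered reads the interaction gave 0.000479, 0.0371 and 0.134 in the same order. Each genotype is 1 cell line, and the causes of these differences were not tested.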

How the results depend on the processing

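The 3 founder averages (Plk2, Plk3, Btg2) passed under every alternative run, including each library left out (3 to 3 raised, 0 to 0 lowered). With 1 library left out, the members raised within strains ranged from 10 to 17 and lowered from 0 to 1, those differing between strains in TM change from 2 to 3 and in control level from 2 to 5. In F1 crosses the range was 3 to 4 raised on average, 4 to 8 raised and 0 to 1 lowered within crosses, and 0 to 1 differing between crosses. A lone library left in an arm was taken to vary like the others. Without a trend in the variance, 4 raised calls within founder strains (of 12), 2 within crosses (of 7) and 2 control-level differences (of 4) were left. With 1 fit over a set there were 22 and 11 raised calls, and at a 5% false discovery rate 19 raised and 1 lowered within founder strains. The shares of all genes raised or lowered under these settings were not counted, so the counts describe the members only. The founder difference in TM change (3 members) went to 1 with the interaction, 1 with the edgeR interaction, and 0 without the TM libraries numbered 1, 2 or 3. The interaction without those libraries gave 0, 1 and 0. The F1 difference (1 member) went to 0 under each of these. Without the TM libraries numbered 1, 2 members were raised in the F1 average (of 4). Directions turned only for genes that had no call: Trp53inp1 was at −0.00086 in founders and −0.0316 in F1 crosses, and Cdkn1a at 0.0471 in F1 crosses, without the TM libraries numbered 1. With a library left out, the F1 changes ranged from −0.0382 to 0.0958 for Trp53inp1 and from −0.1141 to 0.0438 for Sesn1 (without xNZO control 3). The causes were not tested.

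Of 29 pairs of control and TM libraries with the same number, 11 had correlated deviations above 0.1 (median 0.0072), so the numbers do not pair the samples. With the replicate block, 3 members were raised on average and 12 within strains in founders, 3 on average and 4 within crosses in F1, and 0 differed in TM change in either set.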
